A study of Mus musculus with 8 samples.

Results

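Genes whose symbols start with Ube2, the prefix of the ubiquitin-conjugating enzymes, were examined in single endocardium cells of the early mouse heart. The prefix alone decided, so not every member need be an active enzyme of this class. The genes were taken as all non-control probes whose gene name on the array starts with Ube2, which gave 37 genes with 72 probes, of 35715 gene names and 55681 probes in all. All 72 were usable on each of the 8 arrays. Where a gene had more than 1 probe, its brightest probe gives its value.

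Each of 8 1-color Agilent arrays carried the amplified cDNA of 1 endocardium cell, taken from the heart tube of embryos at E8.5 with 9 somites. The 4 WT cells had the genotype *Mesp1*+/+ *Sox17*flox/flox, and the 4 *Sox17* KO cells had the genotype *Mesp1*Cre/+ *Sox17*flox/flox. Both groups therefore carried the floxed *Sox17* alleles, and only the KO group carried the Cre, which replaces a *Mesp1* allele and acts in the early mesoderm and its descendants. The embryo of origin was not named for any cell, so each genotype counted as 1 sample and no test between genotypes was possible.

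Ubiquitin is a small protein that is attached to other proteins by a chain of enzymes. An E1 enzyme activates it, an E2 enzyme carries it as a thioester, and an E3 ligase picks the substrate. The E2 enzyme, often together with the ligase, decides whether 1 ubiquitin or a chain of a given linkage is built, and thereby whether the substrate is degraded by the proteasome, relocated or given a signaling role. Most E2 enzymes are widely expressed, and some family members carry related modifiers such as NEDD8 or ISG15 in place of ubiquitin.

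The scanner software called between 11370 probes in WT cell 1 and 18175 probes in WT cell 4 well above background, and the KO cells lay between 12781 and 16853. The study assigned cell types by PCR for marker genes. Of 10 endocardial or endothelial markers, 7 to 10 were well above background in each WT cell and 6 to 9 in each KO cell, among them *Cdh5* and *Kdr* in all 8. The largest difference among the 10 was that of *Emcn*, at 4.07 (pooled SD 2.58), which is over 5-fold. *Tek*, *Nfatc1* and *Tie1* differed by -2.16, -1.58 and 1.34, with pooled SDs of 1.88, 2.23 and 1.92. *Npr3* was well above background in 3 WT cells and no KO cell. The median difference of the 10 was -0.06. Cardiomyocyte markers were also present, with 3 to 6 of 9 in WT and 2 to 6 of 9 in KO cells, and their summed signal ranged from 314 to 34050 in WT and from 772.7 to 48810 in KO cells. Of these, *Actc1* and *Myh7* were well above background in all 8 cells, with differences of 2.67 (pooled SD 2.79), which is over 5-fold, and -1.40 (pooled SD 2.58), while *Ttn* and *Ryr2* were at the floor or near it. The smooth muscle markers *Acta2* and *Tagln* were well above background in all 8 cells as well, with differences of -0.36 (pooled SD 3.81) and 0.31 (pooled SD 1.08). *Acta2* was high only in WT cell 2, at 13.80, and KO cell 4, at 12.86, and was at the floor or near it in the other cells. *Myh7* was likewise high only in WT cell 2, at 13.24, and reached at most 7.25 in the others. *Tagln* was low throughout, from the floor to 8.22 in KO cell 4. The part of such transcripts in the differences of Ube2 genes was not tested. Blood markers were above background at 1 of 5 in 2 WT cells and at none in the other cells, and the 5 endoderm markers were above background in none. *Sox17* itself was at the floor in all 8 cells at both of its probes, which lie in the far 3′ part of the transcript, so that it did not check the genotypes. All arrays were on 1 slide in 1 scan, with the genotypes in separate columns, and the place on the slide and the genotype cannot be told apart.

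Values are log2 of the scaled intensity, in which signals under 50 were set to 50, a floor of 5.64 on the log2 scale. Cells at the floor cannot be ordered. A difference is the mean of the 4 KO cells minus the mean of the 4 WT cells. The pooled SD beside it is the spread between single cells of a genotype, not the error of the difference. With 4 arrays a genotype, the precision of each difference is limited. Probes differ in brightness, so levels are not compared between genes.

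*Ube2b* showed the largest difference of the 37 genes, with higher signal in all 4 KO cells than in any WT cell. *Ube2b* and its close paralogue *Ube2a* encode the mammalian RAD6 enzymes, which ubiquitinate histones together with RNF20 and RNF40 and the replication clamp PCNA together with RAD18. The 3 *Ube2b* probes are shown here because the result turns on them. Capitals mark the 49 of 60 bases that the probes at transcript positions 544 and 555 share.

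*Ube2b* probe at 358: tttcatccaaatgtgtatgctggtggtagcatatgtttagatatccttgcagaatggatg
*Ube2b* probe at 544: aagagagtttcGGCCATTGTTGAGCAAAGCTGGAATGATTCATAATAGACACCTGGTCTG
*Ube2b* probe at 555: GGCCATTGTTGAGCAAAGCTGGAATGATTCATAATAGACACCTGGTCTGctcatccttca

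The array annotation places the probe at 544 at chr11:51800169-51800228 and the probe at 555 at chr11:51800158-51800217, both on the minus strand of mm9. Because of their overlap they are close to 1 measurement made at 2 spots. The probe at 358 is placed at chr11:87758097-87758156 on the plus strand, apart from the other two, and which transcripts it captured was not tested. No *Ube2a* probe shared a run of more than 6 bases with a *Ube2b* probe, and no pair of probes of different Ube2 genes shared a run of 20 bases or more. Equal bases that need not lie in 1 run were more numerous. They numbered 20 to 23 between *Ube2a* and *Ube2b* probes. Between the brightest *Ube2d2a* probe and the *Ube2d2b* probes they numbered 44 and 46.

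At the brightest probe, at 555, *Ube2b* was 5.64, 11.28, 5.64 and 10.82 in WT cells (1 to 4) against 13.47, 15.65, 14.31 and 14.07 in KO cells (1 to 4). The WT cells thus fell into 2 cells at the floor and 2 cells near 11, and the lowest KO cell lay 2.19 above the highest WT cell. Before the floor, the scaled signals of the WT cells were 6.17, 2490, 15.2 and 1809, and those of the KO cells ran from 11340 to 51530. The mean was 8.35 ± 3.13 (SD, 4 cells) in WT and 14.38 ± 0.92 (SD, 4 cells) in KO cells, a difference of 6.03 with a pooled SD of 2.31. On the linear scale this difference was 65.3-fold, a size that the floor in WT cells 1 and 3 limits.

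The probe at 544 gave a difference of 5.99 with a pooled SD of 2.29, close to that of the probe with which it shares bases. The probe at 358 gave 5.64, 8.90, 5.64 and 7.99 in WT cells and 10.20, 13.06, 11.81 and 11.55 in KO cells, a difference of 4.61 with a pooled SD of 1.44. The same WT cells, 1 and 3, were at the floor at all 3 probes, and the groups overlapped at none of them. WT cell 3 was still called well above background at the probes at 544 and 555, whereas WT cell 1 was so at no probe. *Ube2b* is also on the list of genes that the study drew from these same cells, so its direction here is a description and not independent evidence.

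**Figure D1:**
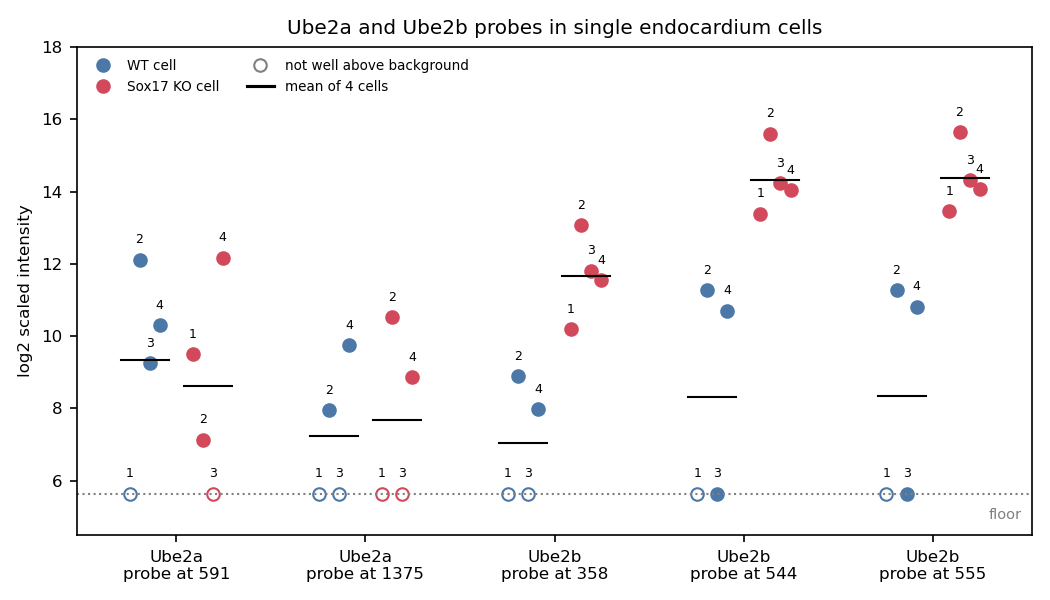
Log2 scaled intensity of the 2 *Ube2a* and 3 *Ube2b* probes in each of 4 WT (blue) and 4 *Sox17* KO (red) endocardium cells, with cell numbers, the mean of 4 cells (black line) and the floor (dotted). Open circles were not well above background. The KO cells lie above all WT cells at each *Ube2b* probe, whereas the groups overlap at both *Ube2a* probes.

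*Ube2a* did not show this pattern. At its brightest probe, at 591 in the transcript, *Ube2a* was 5.64, 12.12, 9.26 and 10.31 in WT cells (1 to 4) against 9.50, 7.14, 5.64 and 12.18 in KO cells (1 to 4). Each genotype held 1 cell at the floor and 1 cell above 12, and the ranges overlapped almost fully. The difference was -0.72 with a pooled SD of 2.79. The other probe, at 1375, gave a difference of 0.42 with a pooled SD of 2.23 and was well above background in 2 cells of each genotype. Its sign was therefore opposite, and both differences were smaller than the spread between cells.

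The difference of *Ube2b* exceeded that of *Ube2a* by 6.75, and the per-cell difference between both genes had a pooled SD of 2.72. Over all 35526 gene names with a usable probe, 12 other genes had a difference as large as or larger than that of *Ube2b*. Among the other 36 Ube2 genes the differences ran from -4.43 to 3.61, and 19 of them were under 1 in size. Across the 30 Ube2 genes detected (well above background) in 1 or more cells, the median of the differences was -0.49, against 0 over all detected genes, and over all 37 genes it was -0.05.

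**Figure D2:**
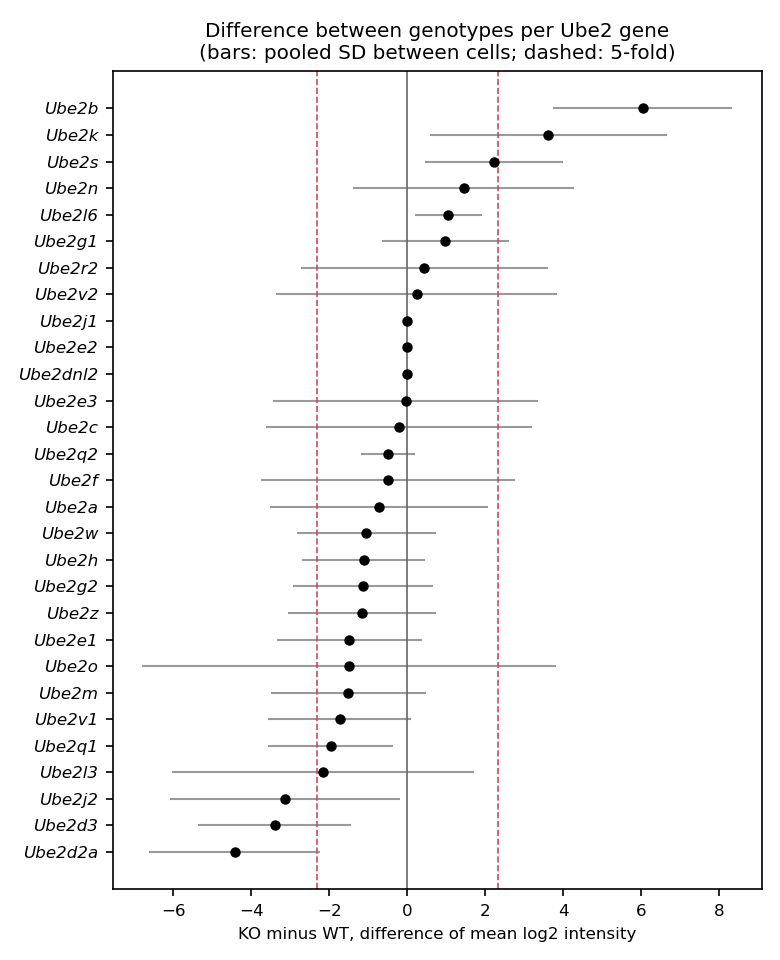
Difference of mean log2 intensity, KO minus WT, for 29 of the 30 detected Ube2 genes (points), with the pooled SD between cells (bars) and the 5-fold limits (dashed lines). *Ube2b* stands at 6.03 and the next gene, *Ube2k*, at 3.61. The bar stays clear of 0 in 8 of the genes drawn. Among these, *Ube2l6* and *Ube2q1* have 1 genotype wholly at the floor, which narrows the bar.

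In all, 2 of the 37 genes had a mean at least 5-fold higher in KO cells, *Ube2b* and *Ube2k*, against 1.84% of all genes, and 3 were at least 5-fold lower, *Ube2d2a*, *Ube2d3* and *Ube2j2*, against 1.86%. These were 5.41% and 8.11% of the family. Without WT cell 4 the higher genes numbered 4, without WT cell 1 the lower genes numbered 6, and without WT cell 2 the lower genes numbered 5. Genes that were not detected in any cell could not reach such a difference, and among those detected in at least 1 cell the shares were 6.67% and 10% of 30 Ube2 genes against 3.23% and 3.27% of 20270 genes. The detected Ube2 genes also varied more between cells of 1 genotype, with a median pooled SD of 1.97 against 0.72 over all detected genes, and what part this had in the shares was not tested. In 1 gene, *Ube2b*, all KO cells lay above all WT cells, against 0.645% of all genes and 1.13% of those detected, and in 1 gene, *Ube2d2a*, all KO cells lay below, against 0.144% and 0.252%.

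Of the 37 genes, 8 had a higher and 19 a lower mean in KO cells, and 10 showed no difference because they stayed at the floor. Over all genes 22.7% were higher and 18.2% lower, and over those detected 39.8% and 32.0%. A difference of at least 2-fold was seen upward in 5 genes, against 7.9% of all genes and 13.8% of those detected, and downward in 13, against 7.43% and 13%. Differences larger than the pooled SD were found in 8 genes. These were *Ube2b*, *Ube2k*, *Ube2s* and *Ube2l6* with higher means in KO cells, against 4.52% of all genes and 7.92% of those detected, and *Ube2d2a*, *Ube2d3*, *Ube2j2* and *Ube2q1* with lower means, against 2.82% and 4.94%. For *Ube2l6* in WT and *Ube2q1* in KO, all 4 cells were at the floor, with an SD of 0. The floor thus narrows their pooled SD, and passing this limit says little about them. With a floor of 200 they differed by 0.05 and -0.97.

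**Figure D3:**
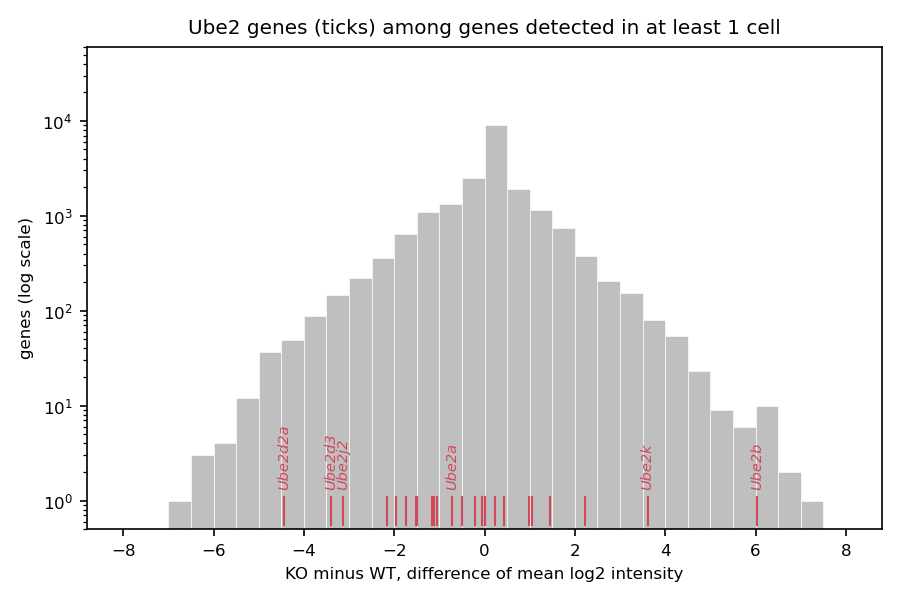
Number of genes (log scale) by difference of mean log2 intensity, KO minus WT, over the 20270 detected genes (gray bars, 0.5 wide), with 29 of the 30 detected Ube2 genes as red ticks. *Ube2b*, at 6.03, stands in the sparse right end, while *Ube2a*, at -0.72, lies in the body of the distribution.

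*Ube2k*, which encodes the chain-building enzyme E2-25K, was the other gene that was at least 5-fold higher. Its brightest probe is shown because its 3 probes did not give 1 answer; the array annotation gives it no genome position.

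*Ube2k* probe at 601: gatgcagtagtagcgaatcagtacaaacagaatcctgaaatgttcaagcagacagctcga

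*Ube2k* was 5.64, 13.18, 6.06 and 13.07 in WT cells (1 to 4) against 14.04, 12.11, 13.51 and 12.74 in KO cells (1 to 4) at this probe. WT cells 2 and 4 lay within the range of the KO cells and WT cells 1 and 3 far below it, and the difference was 3.61 with a pooled SD of 3.03. These are the same WT cells in which *Ube2b* was at the floor. Unlike *Ube2k*, *Ube2b* was lower than in any KO cell also in WT cells 2 and 4. A second *Ube2k* probe was well above background in 2 KO cells and no WT cell. With the floor applied it was 1.82-fold higher in KO cells, a difference of 0.87. The last probe was above background in no cell. The mean of the *Ube2k* probes differed by 1.49, under 5-fold.

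The genes with lower means in KO cells included both detected members of the Ube2d family, the broadly acting UBCH5 enzymes that work with many RING ligases. *Ube2d2a* was 13.12, 7.26, 8.95 and 13.27 in WT cells (1 to 4) against 7.25, 5.64, 5.64 and 6.35 in KO cells (1 to 4). The difference was -4.43 with a pooled SD of 2.2, and WT cells 1 and 4 stood far above the other cells. The groups were apart by only 0.011, between WT cell 2 and KO cell 1, and overlapped under quantile normalization, another background correction or a floor of 200. The array annotation places this probe on chromosome 3, whereas the gene lies on chromosome 18, and the other 2 probes of *Ube2d2a* differed by -0.90 and -0.42, so that the mean of its probes differed by -1.92. *Ube2d2a* was among the genes that the study listed from these cells, so its direction is not independent evidence either.

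*Ube2d3* was 5.64, 10.91, 11.44 and 9.91 in WT cells (1 to 4) against 5.64, 5.64, 5.64 and 7.36 in KO cells (1 to 4). WT cells 2, 3 and 4 lay above all KO cells, and WT cell 1 was at the floor like most KO cells. The difference was -3.40 with a pooled SD of 1.96. The other *Ube2d3* probe, which was well above background in all 8 cells but is placed on chromosome 12 in place of chromosome 3, showed a difference of 0.41 with a pooled SD of 1.38, in the opposite direction. The related *Ube2d1* and *Ube2d2b* were not well above background in any cell.

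*Ube2j2* encodes a membrane-anchored enzyme of the endoplasmic reticulum that serves in the degradation of misfolded proteins. At its brightest probe it was 13.07, 11.98, 15.05 and 13.07 in WT cells (1 to 4) against 7.08, 6.66, 12.04 and 14.84 in KO cells (1 to 4). KO cells 1 and 2 lay far below the WT cells, while KO cells 3 and 4 lay within their range, and the difference was -3.14 with a pooled SD of 2.95. It was -2.11 without KO cell 1 and -1.97 without KO cell 2, both under 5-fold. A second probe gave nearly the same picture, with a difference of -3.19 and a pooled SD of 3.02.

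The last *Ube2j2* probe differed in KO cell 4 and is therefore shown. It is placed at chr14:56629703-56629762 on the minus strand of mm9, whereas the gene lies on chromosome 4.

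*Ube2j2* probe at 891: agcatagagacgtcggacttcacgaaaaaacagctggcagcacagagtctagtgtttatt

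This probe gave 10.84, 9.77, 9.78 and 10.91 in WT cells (1 to 4) against 5.64, 6.01, 9.51 and 5.64 in KO cells (1 to 4). All KO cells were below all WT cells, with a difference of -3.62 and a pooled SD of 1.40. KO cell 4 was thus at the floor here, but had the second highest signal of the 8 cells at the brightest *Ube2j2* probe. *Ube2j2* was also on a list of the study from these cells. The other genes of this pathway, *Ube2g1* and *Ube2g2*, differed by 0.98 and -1.15, each within its pooled SD of 1.62 and 1.79, and *Ube2j1* stayed at the floor. The other *Ube2g2* probe, which was well above background in all 8 cells, differed by 0.47 with a pooled SD of 0.73, in the opposite direction.

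**Figure D4:**
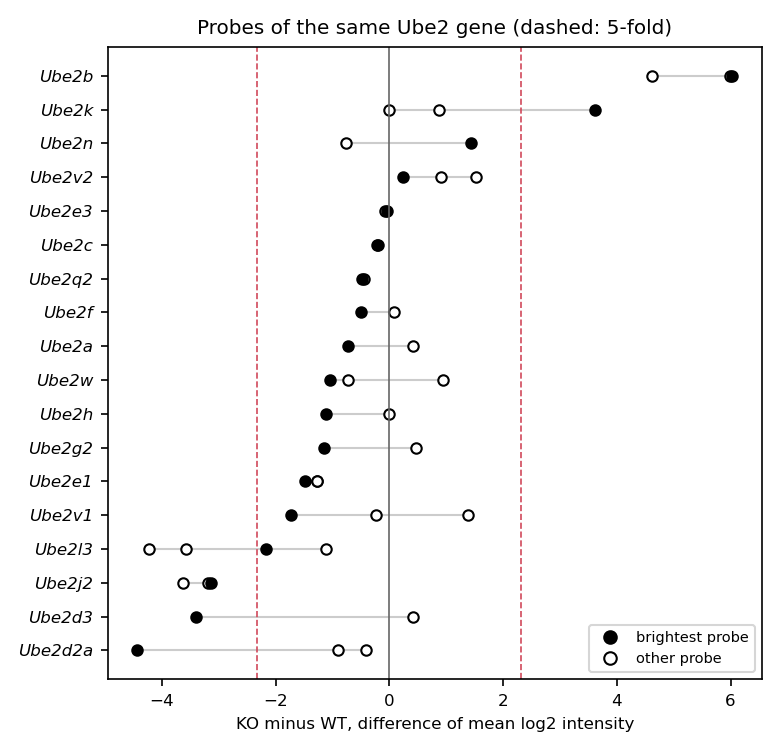
Difference of mean log2 intensity, KO minus WT, at each probe of 18 of the 19 Ube2 genes with several probes and a difference other than 0 at 1 or more of them. Filled circles are the brightest probe of a gene and open circles its other probes, with the 5-fold limits dashed. The probes of *Ube2b* and *Ube2j2* stay past the limit on 1 side, those of *Ube2d3* fall on both sides of 0.

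Probes of the same gene often gave unlike differences. Of 22 genes with several probes, 19 had a difference other than 0 at 1 probe or more, and in 8 of these the probes differed in sign. Of the 72 probes, 15 from 10 genes are placed on another chromosome than their gene, among them the brightest probes of *Ube2d2a*, *Ube2e1*, *Ube2s* and *Ube2v1*. *Ube2l3*, encoding UbcH7, which works with HECT and RBR ligases, was -2.17 at its brightest probe with a pooled SD of 3.87, and -1.11, -3.58 and -4.22 at the others. The last 2 of these probes are placed on chromosomes 5 and 17, and the gene lies on chromosome 16.

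Only 5 of the 37 genes were well above background in all 8 cells, among them *Ube2j2*, *Ube2m*, *Ube2s* and *Ube2v1*. A further 16 were so in 4 to 7 cells and 9 in 1 to 3 cells, and 7 genes were so in no cell, *Ube2cbp*, *Ube2d1*, *Ube2d2b*, *Ube2dnl1*, *Ube2ql1*, *Ube2t* and *Ube2u*. WT cells 1 to 4 had 11, 22, 20 and 25 Ube2 genes well above background, and KO cells 1 to 4 had 19, 15, 17 and 22. The lowest count was in WT cell 1, the cell with the fewest probes above background, and the highest was in WT cell 4, the cell with the most. With a looser detection call of the scanner software the counts were 21 to 30 in WT and 23 to 28 in KO cells.

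**Figure D5:**
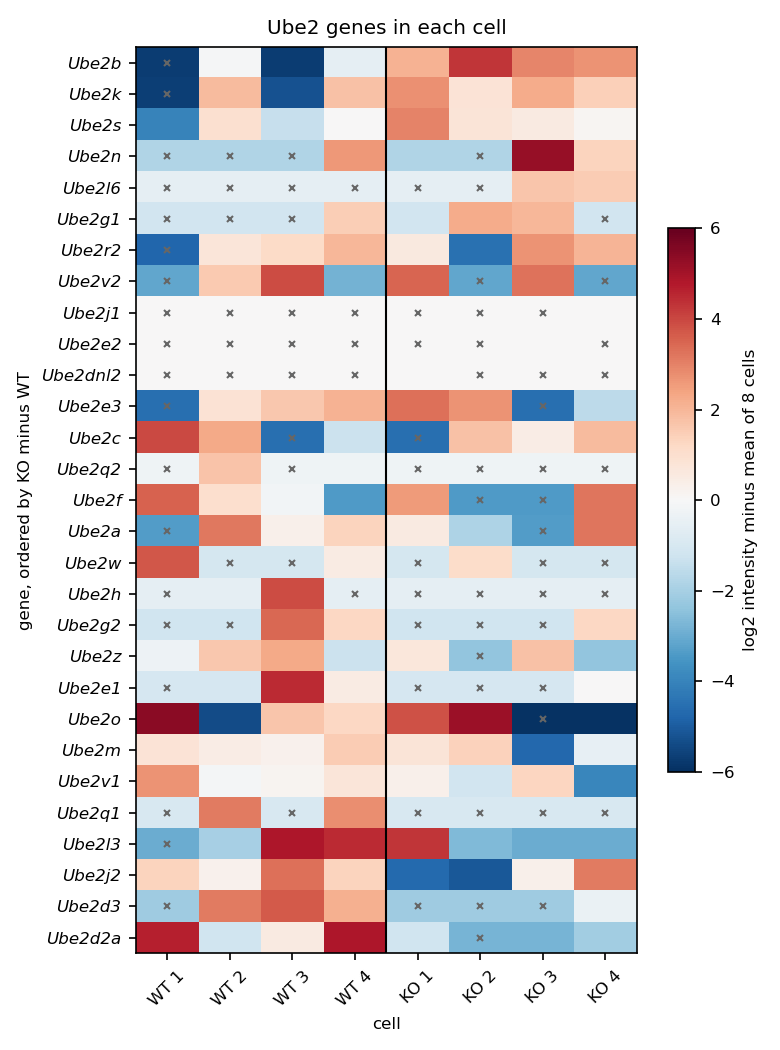
Log2 intensity of 29 of the 30 Ube2 genes detected in at least 1 cell, as the deviation from each gene's mean over 8 cells (color, red above and blue below), by cell and ordered by the difference between genotypes. Crosses mark cells in which the gene was not well above background. *Ube2b* is at the top, with all KO cells red and WT cells 1 and 3 dark blue.

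The carriers of the modifiers NEDD8 and ISG15 overlapped between genotypes. *Ube2m*, the NEDD8 carrier that activates most cullins, was 11.53, 11.14, 10.96 and 12.23 in WT cells (1 to 4) against 11.50, 12.09, 5.98 and 10.22 in KO cells (1 to 4). The WT cells lay close together, KO cell 3 was far below them, and the difference of -1.51, with a pooled SD of 1.99, was -0.19 without KO cell 3. *Ube2f*, the other NEDD8 carrier, differed by -0.49 with a pooled SD of 3.26, and by 0.08 at its other probe. *Ube2l6*, the ISG15 carrier, was well above background in 2 KO cells and no WT cell. With the floor applied it was 2.08-fold higher in KO cells.

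The enzymes that build signaling chains, *Ube2n* and its catalytically inactive partners, overlapped between genotypes as well. *Ube2v1* was 16.29, 13.49, 13.77 and 14.31 in WT cells (1 to 4) against 13.91, 12.43, 14.88 and 9.69 in KO cells (1 to 4), and the difference was -1.74 with a pooled SD of 1.83. Its other probes differed by 1.38, with a pooled SD of 1.29, and by -0.24, and the mean of the 3 probes by -0.20. *Ube2n* differed by 1.44 with a pooled SD of 2.83, and by -0.77 at its other probe. *Ube2v2* differed by 0.24 with a pooled SD of 3.60, and by 1.53 and 0.91 at its other probes. The 3 *Ube2v1* probes are all placed on chromosome 3, and the gene lies on chromosome 2.

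The partners of the anaphase-promoting complex, which drives the exit from mitosis, were read beside 20 G2/M genes. *Ube2c*, which starts chains on its substrates, was 14.10, 12.43, 5.64 and 8.85 in WT cells (1 to 4) against 5.64, 11.89, 10.59 and 12.03 in KO cells (1 to 4). Each genotype held 1 cell at the floor, and the difference was -0.22 with a pooled SD of 3.41. *Ube2s*, which extends the chains, was 5.80, 10.73, 8.40 and 9.81 in WT cells (1 to 4) against 12.75, 10.58, 10.36 and 9.93 in KO cells (1 to 4). Its difference of 2.22, with a pooled SD of 1.76, was just under 5-fold, and the groups overlapped. With 1 cell left out it lay between 1.26 (WT cell 1) and 2.90 (WT cell 2), and it passed 5-fold without any 1 of WT cells 2 and 4 and KO cells 2, 3 and 4. *Ube2t*, the enzyme of the Fanconi anemia pathway, was not detected. The G2/M genes above background numbered 7, 18, 4 and 9 in WT cells (1 to 4) against 5, 4, 4 and 9 in KO cells (1 to 4). Of the 20, 1 was at least 5-fold higher and 5 at least 5-fold lower in KO cells. The shares over all genes were 1.84% and 1.86%, and over those detected 3.23% and 3.27%. *Ube2b* was at the floor in WT cells 1 and 3, with 7 and 4 G2/M genes above background, and high in KO cells with 4 to 9. The part of the cell cycle in the *Ube2b* difference was not tested.

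The remaining genes showed differences within about 2 log2 units. *Ube2o*, a large enzyme that combines E2 and E3 functions, varied most between cells, with 17.00, 6.24, 13.25 and 12.86 in WT cells (1 to 4) against 15.40, 16.70, 5.64 and 5.64 in KO cells (1 to 4). Its pooled SD was 5.31 and its difference -1.49. *Ube2q1*, *Ube2h* and *Ube2q2* were each well above background in 2 WT cells and no KO cell. With the floor applied they were 3.91-fold, 2.17-fold and 1.40-fold lower in KO cells. These values rest on 1 or 2 cells each. *Ube2q1* was above the floor in WT cells 2 and 4, and its difference of -1.97 was -1.25 without the first and -1.37 without the second of them. *Ube2h*, at 10.12 in WT cell 3, and *Ube2q2*, at 7.60 in WT cell 2, were at the floor in all other cells, so that no difference was left without that cell. *Ube2e1*, *Ube2w* and *Ube2z* differed by -1.49, -1.05 and -1.17, all within their pooled SD of 1.85, 1.78 and 1.90. The other probes gave -1.27 and -1.28 for *Ube2e1* and 0.95 and -0.72 for *Ube2w*. *Ube2e3*, with -0.05, and *Ube2r2*, a cullin-linked enzyme, with 0.44, differed least against their pooled SD of 3.40 and 3.16. *Ube2e2*, *Ube2j1* and *Ube2dnl2* were above background in 1 KO cell each but stayed at the floor.

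The steps before and after the E2 enzymes were read from lists of the genes at each step. All 4 ubiquitin genes were well above background in all 8 cells, and none differed by 5-fold. Of 8 E1 genes 6 were detected and none was 5-fold apart. *Uba1*, the main ubiquitin-activating enzyme, was 14.94, 13.33, 15.12 and 14.02 in WT cells (1 to 4) against 15.84, 17.06, 15.65 and 15.81 in KO cells (1 to 4). All KO cells lay above the WT cells, with a difference of 1.73 and a pooled SD of 0.75. Of 6 E2 genes with other names 4 were detected and none was 5-fold apart. Among them, *Cdc34* had a difference of 0.27. For *Ufc1*, the carrier of the modifier UFM1, all KO cells lay above the WT cells, with a difference of 1.89 and a pooled SD of 0.82. All KO cells lay above all WT cells in 0.645% of all genes and 1.13% of those detected.

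Of 7 genes that encode partners of the RAD6 enzymes, 5 were detected, 1 was at least 5-fold higher and 1 at least 5-fold lower in KO cells. The shares over all genes were 1.84% and 1.86%, and over those detected 3.23% and 3.27%. *Rnf20*, the ligase for histone ubiquitination, was 5.64, 9.51, 5.64 and 5.64 in WT cells (1 to 4) against 5.64, 11.81, 13.10 and 9.21 in KO cells (1 to 4), a difference of 3.33 with a pooled SD of 2.70. *Wac*, an adaptor of that ligase, was 14.03, 11.18, 12.49 and 11.45 in WT cells (1 to 4) against 5.64, 5.64, 12.76 and 10.49 in KO cells (1 to 4), a difference of -3.65 with a pooled SD of 2.69. The groups overlapped for both genes. *Rad18*, the ligase that acts on the replication clamp, stayed at the floor in all cells. Of 4 genes of the anaphase-promoting complex and its activators, all were detected and none was 5-fold apart.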

How the data were processed

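Single cells were profiled on 8 arrays, 4 of WT and 4 of *Sox17* KO endocardium. The authors deposited the scanner output of Agilent Feature Extraction 12.0.2.2 (array design 028005, mm9 positions), in which intensity was background-subtracted and detrended per array but not normalized between arrays. Other columns of the deposited files are flags of that software for outlier spots, saturated spots and spots over background.

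After removal of control and outlier spots, replicate spots were averaged and 55295 of 55681 probes, those usable on each array, were retained. No probe was saturated. Arrays were scaled by their 50th percentile over the 7570 probes that were well above background on each of them. A floor of 50 was then applied, before the log2 transformation. The methods word the floor before the scaling, and that order is among the alternatives. A probe was well above background in a cell when over 50% of its spots were flagged so. A gene took its probe with the highest mean deposited signal. Of the 72 probes, 70 were matched by accession to a RefSeq table (GRCm38.p6), used for names and gene chromosomes only.

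Genes named were *Ube2a*, *Ube2b*, genes at least 5-fold apart, genes whose cells did not overlap, genes on the study's lists, those detected in all or no cells, and cell-cycle partners. The values of 1 family member are not reported here, although it is included in the counts. Single other genes were named within their role groups after their values were seen. Where a gene was well above background in no cell of a genotype, its fold was taken with the floor applied to both genotypes. Cells of the brighter genotype under the floor were raised to it as well, so this fold is not a strict lower bound. The family, lists and roles were chosen with earlier results of these data known.

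Since cells are not replicates here, no p-value was computed. Alternatives were another percentile or scaling set, quantile normalization, normexp, other floors, probe rules, detection calls and thresholds, and leaving out each cell. The steps were tested on simulated data. Analyses used Python 3.11.15, numpy 2.4.6, pandas 2.3.3, matplotlib 3.10.9, R 4.3.3 and limma 3.58.1 (normexp, offset 50).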

Additional observations from a re-analysis of the deposited data

Results flagged for a closer look

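Of 42 groups of 4 cells with at most 2 cells at the floor, 1 held a cell far from the others by Dixon's criterion. For values without ties chance gives about 1 in 20, or 2.1 groups. Groups with 2 cells at the floor hold ties, so this rate is only a rough guide here. The group that passed was *Ube2l3* in KO cells, with 12.89 in KO cell 1 and 5.97, 5.64 and 5.64 in the other KO cells. The gap took up 0.954 of the range, a ratio that the floor also shapes. A further 18 groups with 3 or 4 cells at the floor, among them *Ube2d3* in KO cells, were left out because the floor fixes the ratio.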

How the results depend on the processing

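The difference of *Ube2b* kept its direction and was over 5-fold in every alternative that gave a value, from 5.03 with a floor of 200 to 7.04 with a floor of 10, and between 5.13 (WT cell 1 left out) and 7.01 (WT cell 2 left out). No *Ube2b* probe was well above background on all 8 arrays, so the setting with only such probes left 8 genes and no *Ube2b*. *Ube2a* ran from -1.44 to -0.15 and, without 1 cell, from -1.95 to 0.27, with the sign turned without KO cell 3 or, at 0.21, without WT cell 2. The 2 genes at least 5-fold higher became 1 when the probes of a gene were averaged, 0 with only probes detected on all arrays and 5 with a 2-fold threshold, and ranged from 2 to 4 without 1 cell, with 4 without WT cell 4. The 3 genes at least 5-fold lower became 6 with a floor of 10, 1 with only probes detected on all arrays and 13 with a 2-fold threshold, and ranged from 3 to 6 without 1 cell, with 6 without WT cell 1 and 5 without WT cell 2. The gene with all KO cells above the WT cells became 0 with only probes detected on all arrays and ranged from 1 to 2 without 1 cell, with 2 without WT cell 2. The gene with all KO cells below was lost, with a count of 0, under quantile normalization, normexp, a floor of 200, the mean of all probes and only probes detected on all arrays, and the count ranged from 1 to 2, with 2 without WT cell 1. *Ube2d3* turned to 0.41 with only probes detected on all arrays, through its other probe, and *Ube2g2*, at -1.15, turned to 0.47 in the same way. Of the other values of single genes, 445 moved by less than the SD between cells or not at all, and 10 moved more. *Ube2k* ran from 1.49, with the mean of all probes, to 4.84, without WT cell 2, and *Ube2d2a* from -5.59 to -1.92, the last with the mean of all probes. The causes of these changes, the smaller number of probes among them, were not tested. Slide and scan could not be used as a block, since there was 1 of each. No paired analysis was possible because each array is 1 cell with no named embryo and no result comes from a test. Signal over background limits the genes at the floor, whose differences depend on the floor or are not measured.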
